A study of Homo sapiens with 6 samples.

Results

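The 7 genes RFX1 to RFX7 encode regulatory factor X (RFX) proteins, and the peaks of accessible chromatin at these genes were examined in human neural progenitor cells (NPCs). The genes were chosen by the RFX motif, whose share of peaks differed between the peak lists of this study, so motif shares are given here as a description. They are 7 of 20033 protein-coding genes in GENCODE version 44 (hg38). Each gene was examined over its promoter, taken as 3 kb on each side of its start, over its body, and over 50 kb on each side. These windows covered 1.66 Mb in all.

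ATAC-seq, in which the Tn5 transposase cuts and tags open DNA, had been done on 50000 cells per sample, with 6 samples in 3 groups of 2. All groups came from the H1 human embryonic stem cell line, turned into NPCs by inhibition of SMAD signalling and grown as neural spheres. WT NPCs were unmodified. dKO NPCs lacked the parts of UTX (gene KDM6A) and JMJD3 (gene KDM6B) that encode the catalytic domains, both enzymes being demethylases of histone H3 lysine 27, after CRISPR editing with puromycin selection. The third group was dKO NPCs given BAF53B, a neuronal subunit of the BAF remodelling complex, by lentivirus, so it carried both deletions as well. The study placed the WT and dKO samples at passage 2, and the labels call the BAF53B samples NPCs, with no passage in their titles. The study's ATAC-seq figure with BAF53B, however, is described as showing differentiated cells. The BAF53B and dKO samples may therefore differ in stage or passage, and the part of this in their ratios was not tested. The cells derive from 1 stem cell line, and the authors pooled both replicates of a group into 1 peak list, so no value here has a replicate error and no test between groups was possible. Differences describe these 3 pooled lists, and intervals cover counting error only.

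RFX proteins bind the X-box, an imperfect palindrome with a GTTGCC arm, through a winged-helix domain. RFX2 and RFX3 drive genes of cilia, RFX4 acts in the developing neural tube and brain, and RFX1 is expressed in many tissues. RFX5 works with the partners RFXANK and RFXAP at MHC class II promoters, RFX6 is needed for pancreatic endocrine cells, and RFX7 resembles RFX5 in its structure.

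The lists of WT, dKO and BAF53B NPCs held 7880, 25439 and 16948 peaks. Depth, read from the lowest background of each list, was close between them, at 6.33, 6.81 and 6.78 fragments, and no listed peak had fewer than 25 fragments at its summit. A weaker site is not listed, so an absent peak sets no value for accessibility. At the promoters of the edited genes, the strongest KDM6A peak had 45 fragments in dKO and 32 with BAF53B and none was listed in WT, and KDM6B had 53, 173 and 71 fragments in WT, dKO and BAF53B. The deletions lie away from these promoters, so the peaks do not check the genotype labels. Of 8 markers of neural progenitors, 1 (VIM), 6 and 3 had a promoter peak in WT, dKO and BAF53B, and PAX6 and NES had none. Of 4 epithelial markers, 1 (EPCAM), 4 and 1 had one, and of 4 mesenchymal markers 0, 2 and 1. Of 4 pluripotency markers, 4 neuronal and 4 glial markers, 0, 1 and 1 of each had a promoter peak in the same order. Among all protein-coding genes, 28.2%, 56.4% and 45.0% had a promoter peak in WT, dKO and BAF53B, so the count of genes rises with the list in general. The part of these markers in the values below was not tested.

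Sequences are shown for the sites of the RFX genes that themselves carried an X-box. The pattern used for them, the full X-box, joins an arm GTNACC or GTNGCC with a mirror arm that ends in GCAAC or GTAAC after an A or a G, with 0 to 3 bases between the arms. It was searched on both strands and was chosen after the sequences had been seen. Each is written on the strand of its gene in hg38, with the full X-box in capitals. The first 3 regions, all at RFX2, held the motif within 100 bp of the summit of an ATAC-seq peak. They were the upstream region at −17.5 kb (chr19:6217032-6217152, minus strand), the alternative start inside the gene (chr19:6110589-6110608, minus strand) and a region in intron 1 (chr19:6066777-6066897, minus strand). The upstream region of RFX4 (chr12:106561006-106561028, plus strand) held one 189 bp from its summit. The site at the alternative start of RFX4 (chr12:106601133-106601154, plus strand) lay in no peak.
RFX2 upstream region: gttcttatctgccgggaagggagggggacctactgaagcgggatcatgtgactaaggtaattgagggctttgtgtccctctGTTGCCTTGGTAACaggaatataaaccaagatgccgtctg
RFX2 alternative start: aaccGTTGCCGGTAACaacg
RFX2 intron 1: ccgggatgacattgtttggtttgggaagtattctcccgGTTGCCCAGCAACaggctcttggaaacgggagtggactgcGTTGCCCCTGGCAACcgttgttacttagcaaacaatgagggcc
RFX4 upstream region: agggGTGGCCTATGGCAACttcc
RFX4 alternative start: tggcGTTGCCATGGCAACccac
The arms of the RFX2 upstream site are 2 bases apart, and those of the alternative start of RFX2 adjoin each other. The intron 1 region held 2 sites, 41 bp apart between their centres.

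As listed, more RFX promoters had a peak in dKO and BAF53B NPCs than in WT NPCs, which was not so in lists of equal length. RFX1, RFX2, RFX3 and RFX5 had a promoter peak in all 3 lists, RFX6 and RFX7 in dKO and BAF53B only, and RFX4 in none. That made 4 of 7 in the WT list and 6 of 7 in each of the other lists. Over all protein-coding genes the shares were 28.2% for WT, 56.4% for dKO and 45.0% for BAF53B. The dKO list marked 2 members that WT did not, as it did for 28.6% of all genes, and the reverse held for 0 members and 0.399% of all genes. All 3 lists held one at 4 members and 26.8% of all genes, and no list at 1 member and 41.3% of all genes. When only the 7880 peaks of highest −log10 q were used from every list, RFX1, RFX2, RFX3 and RFX5 kept a WT and a BAF53B promoter peak, and RFX1, RFX2 and RFX5 a dKO one.

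**Figure D1:**
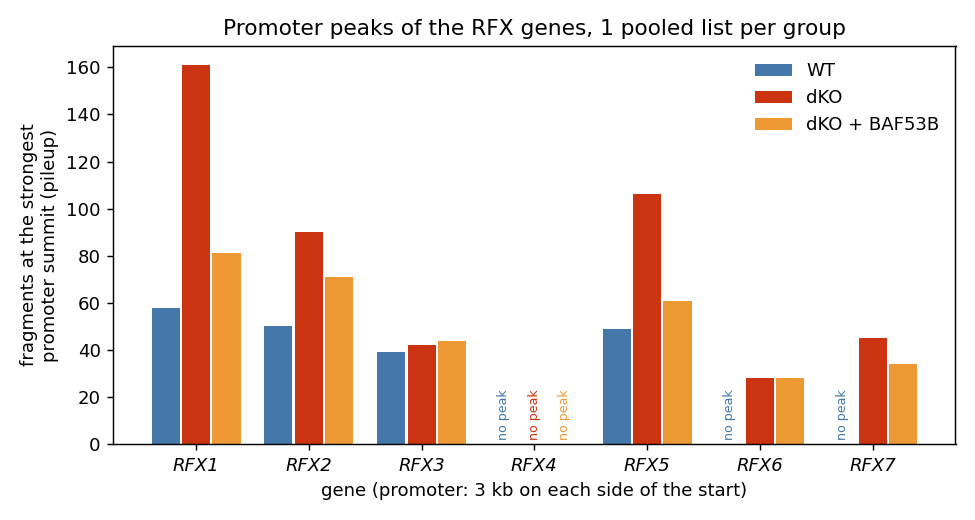
Number of fragments at the summit of the strongest promoter peak (y axis) of each RFX gene (x axis) in the pooled lists of WT, dKO and dKO NPCs with BAF53B; there are no replicate values and so no error bars, and a gene without a listed peak is marked as such. The RFX1 bar of the dKO list, at 161 fragments, is the tallest, the 3 RFX3 bars lie between 39 and 44, and RFX4 has no bar.

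RFX1 (ENSG00000132005.9, chr19:13961530-14007039, minus strand) had the tallest promoter peak of the family in dKO. A summit is placed here where the list with the most fragments has it, and in regions in more than 1 list the summits lay at most 75 bp apart, except where a wider gap is given. The RFX1 region, chr19:14005608-14007181, had its summit 172 bp upstream of an annotated transcript start. The summit held 58 WT fragments, 161 dKO fragments and 81 BAF53B fragments, or 4.89-fold, 8.22-fold and 5.32-fold over local background in the authors' scale. dKO was the highest list, and BAF53B lay closer to WT than to dKO. Set over the genome background of each list, which corrects for depth, the dKO value was 2.58 times the WT value (95% counting interval 1.9 to 3.55), and the BAF53B value was 0.506 times the dKO value (0.382 to 0.665). Over all regions shared by WT and dKO, the median ratio of dKO over WT was 1.62. The dKO fold stood at percentile 94.4 of all genes with a dKO promoter peak, and the WT fold at percentile 78.5 of those with a WT one.

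RFX5 (ENSG00000143390.18, chr1:151340640-151347326, minus strand) followed the same order. Its summit, 50 bp upstream of the start, held 49, 106 and 61 fragments in WT, dKO and BAF53B. The dKO value over genome background was 2.01 times that of WT (1.42 to 2.88), and the BAF53B value was 0.579 times that of dKO (0.415 to 0.80). The sequence upstream of the start is shown because it carries, within 1 peak summit, a core site of the X-box (GTTGCCA, its variant GTTACCA, or else the variant GTTGCTA) beside 2 CCAAT boxes, the site of the NF-Y factor, which binds together with RFX5 at MHC class II promoters. Capitals mark the core site and CCAAT in chr1:151347327-151347436 (hg38, minus strand).
RFX5 promoter: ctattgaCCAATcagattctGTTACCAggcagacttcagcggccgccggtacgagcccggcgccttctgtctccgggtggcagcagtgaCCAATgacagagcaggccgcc
A CCAAT box was present near the summit, within 100 bp, in 39.0% of WT, 26.5% of dKO and 31.5% of BAF53B peaks, and in 34.6% of 35116 RefSeq promoters of 300 bp. The RefSeq promoters are longer than the stretch searched at a summit, so their share is not a like baseline. A peak in the last exon of RFX5, at chr1:151340836-151341177, was listed in dKO and BAF53B with 37 fragments each.

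RFX2 (ENSG00000087903.13, chr19:5993164-6199572, minus strand), a regulator of cilia genes, had the most peak regions of the family, 10, of which 4 were in all 3 lists. At its promoter the summit lay 110 bp upstream of the start and held 50 fragments for WT, 90 for dKO and 71 for BAF53B. The dKO value over genome background was 1.67 times the WT value (1.17 to 2.41). The BAF53B value was 0.793 times the dKO value with an interval that reached past 1 (0.573 to 1.09), so no difference between these lists was detectable at this depth.

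A region inside the gene was taller than the promoter in each list. It lay at chr19:6110349-6110967, 88.9 kb into the gene and 41 bp upstream of the start of a shorter annotated RFX2 transcript, and it held 52, 127 and 92 fragments in WT, dKO and BAF53B. The dKO value was 2.27 times that of WT (1.63 to 3.20) and the BAF53B value 0.728 times that of dKO (0.551 to 0.960). The full X-box shown above lay 44 bp downstream of this summit, at the transcript start itself. In WT the difference from the promoter was 2 fragments, which is within counting error.

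The upstream region of RFX2, at chr19:6216688-6217588, lay 17.5 kb before the start and within 3 kb of no other coding gene start. It held 34 fragments for WT, 105 for dKO and 59 for BAF53B. Its dKO value was 2.87 times the WT value (1.93 to 4.36), the highest ratio among the 9 regions of the family shared by WT and dKO, and its BAF53B value was 0.565 times the dKO value (0.403 to 0.784). The full X-box was centred 28 bp downstream of the summit on the gene strand. The intron 1 region with 2 full X-boxes, at chr19:6066639-6067093, was listed with BAF53B alone, with 32 fragments. The other peaks in intron 1 held 32 to 38 fragments, 3 of them in dKO alone and 1 in dKO and BAF53B. A region downstream of RFX2, with 46, 76 and 73 fragments, lay at the start of RANBP3.

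**Figure D2:**
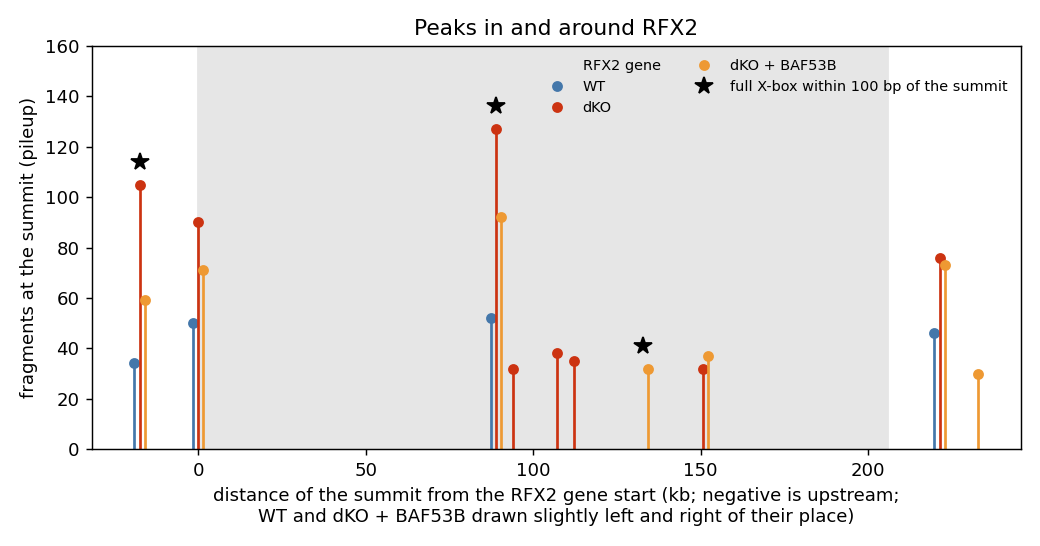
Fragments at the summit (y axis) of each listed peak against its distance from the RFX2 gene start (x axis, kb, downstream positive), with the gene shaded, points coloured by list and stars over regions with a full X-box within 100 bp of the summit. The stars stand over the upstream region, the region at the alternative start, which reaches 127 fragments in dKO, and a peak listed with BAF53B alone.

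RFX3 (ENSG00000080298.16, chr9:3218297-3526004, minus strand), like RFX2 a regulator of cilia genes, had promoter pileups of 39, 42 and 44 fragments in WT, dKO and BAF53B, but at different places in 1 region. The WT summit lay 208 bp upstream of the start, the dKO summit 111 bp inside the gene and the BAF53B summit 433 bp upstream, so the values compare sites up to 544 bp apart. Over genome background the dKO value was 1.0 times the WT value, with a counting interval of 0.632 to 1.59 that includes 1 and lies below the median of 1.62 over all regions shared by WT and dKO. The BAF53B value was 1.05 times the dKO value (0.674 to 1.65). Inside the gene, 3 intron peaks were in dKO alone, with 25 to 31 fragments, and 2 in BAF53B alone. The taller of the latter, at chr9:3498759-3499033 in intron 1, held 44 fragments and a core site.

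RFX4 (ENSG00000111783.13, chr12:106583004-106762803, plus strand), the member tied to brain development, was the 1 member with no promoter peak in any list. Its gene body held 4 peaks, all in dKO alone, with 42 fragments in intron 1, 26 in intron 2, 31 in intron 4 and 32 in intron 13. The intron 1 peak, chr12:106586872-106587639, lay 4207 bp from the gene start and 1484 bp downstream of the start of another annotated transcript, so that with the starts of all transcripts 7 members instead of 6 had a promoter peak in dKO. The alternative start of RFX4 shown above, with a full X-box that also matches the stricter consensus defined below, had no peak in any list. The upstream region, chr12:106560987-106561321, was listed with BAF53B alone, with 26 fragments. The 1 region near RFX4 that was in all 3 lists, with 33, 79 and 62 fragments at summits up to 188 bp apart, lay at the start of the neighbouring gene RIC8B.

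RFX6 (ENSG00000185002.10, chr6:116877212-116932161, plus strand), the pancreatic member, had 1 region in its whole window, at the start, with 28 fragments in dKO and 28 with BAF53B. This is near the smallest pileup of any listed peak. RFX7 (ENSG00000181827.16, chr15:56087280-56245082, minus strand) had 2 promoter regions in dKO, with 45 and 44 fragments, of which the first was also listed with BAF53B, with 34. The BAF53B value of that region was 0.760 times the dKO value (0.472 to 1.21), at a summit 561 bp away. Both regions also lay within 3 kb of the start of TEX9 on the other strand, so they cannot be assigned to RFX7 alone. The first, shown at chr15:56244442-56244562 (hg38, minus strand) with capitals at ATTGG, the CCAAT box on the other strand, held 2 such boxes and no core site.
RFX7 promoter: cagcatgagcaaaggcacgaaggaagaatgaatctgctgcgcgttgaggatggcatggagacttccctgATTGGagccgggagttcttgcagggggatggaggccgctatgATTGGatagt

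By promoter pileup in dKO the order was RFX1, RFX5, RFX2, RFX7, RFX3 and RFX6, at 161, 106, 90, 45, 42 and 28 fragments, and in WT it was RFX1, RFX2, RFX5 and RFX3, at 58, 50, 49 and 39. Neighbours such as RFX7 and RFX3 in dKO or RFX2 and RFX5 in WT differed by 1 to 3 fragments, less than counting error. Genes on other chromosomes with the closest promoter values over the 3 lists, by distance on the log2 scale of pileup over genome background, were PHF23 and GABARAP for RFX1 (0.0598 each), ITPR1 and GATB for RFX2 (0.0478 and 0.0553), and KIAA0753 and ENSG00000282936 for RFX3 (0.0332 each). PHF23 and GABARAP had the same 3 values, 59, 161 and 78 fragments. KIAA0753 and ENSG00000282936 also shared theirs, 39, 42 and 43, so neither pair need be 2 separate matches.

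The windows of the 7 genes held 37 regions once overlapping peaks of the lists were merged. Of these, 9 were in all 3 lists, 5 in dKO and BAF53B, 17 in dKO alone and 6 in BAF53B alone, and 0 were in WT alone, in WT and dKO only or in WT and BAF53B only. Among all 32108 merged regions, 17.9% were in all 3 lists, 16.8% in dKO and BAF53B, 42.8% in dKO alone, 16.2% in BAF53B alone, 3.63% in WT alone, 1.34% in WT and dKO only and 1.38% in WT and BAF53B only. The count in WT was 9 peaks, against 31 in dKO and 20 with BAF53B, or 3.44 and 2.22 times as many, while the whole lists were 3.23 and 2.15 times as long. The windows held 0.114% of the WT, 0.122% of the dKO and 0.118% of the BAF53B peaks. With lists of equal length, 9, 10 and 11 peaks were left. The gene bodies held 18 of the 37 regions and 12 of the 17 listed in dKO alone, and RFX4, RFX2 and RFX3 held 10 of these 12. RFX4, RFX2 and RFX3 are the longest genes of the family, at 180, 206 and 308 kb. The counts were not adjusted for length, and the same split over all genes was not computed. Of the 37 regions, 7 lay within 3 kb of the start of another coding gene, namely PODNL1 and DCAF15, IL27RA, RANBP3, RIC8B, PI4KB and TEX9.

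**Figure D3:**
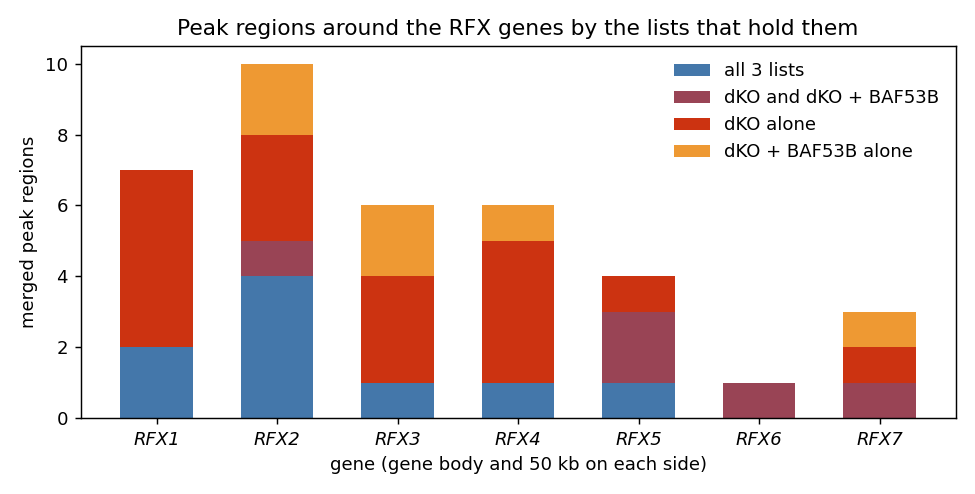
Number of merged peak regions (y axis) in the gene body and 50 kb on each side of each RFX gene (x axis), stacked by the lists that hold them. RFX2 has the tallest stack with 10 regions, 4 of them in all 3 lists, and RFX6 the shortest with 1.

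The regions in dKO and not in WT were mostly weak. Their median was 37 fragments, as over all dKO regions not in WT. In RFX1, intron 7 held the strongest one inside a member gene, at chr19:13978345-13978861 with 61 fragments. Scaled to the WT depth, 14 of the 22 reached the pileup needed for a WT call against their own local background. When the values were also divided by 1.62, the median ratio of dKO over WT, 1 did, the promoter of PI4KB in the flank of RFX5 (dKO and BAF53B summits 167 bp apart). The local background in this step was that of dKO, scaled for depth and not divided by the ratio, which raises the pileup needed. Why the WT list lacks a peak at the other 21 was not tested.

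Where both WT and dKO had a peak, the RFX regions were mostly taller in dKO. The study, from its own differential peak calls, reported many promoters as more closed in dKO NPCs. It found the RFX2 motif enriched in the closed regions and described them as re-opened in cells given BAF53B. The pooled lists run the other way. Those calls were not repeated here, and the reason for the difference was not tested. Of the 9 shared regions, 8 were higher in dKO over genome background, all 8 with a counting interval above 1, and 91.4% of 6180 such regions genome-wide were higher. The intervals at the RFX2 and RFX5 promoters and at the starts of RANBP3 and RIC8B included the genome-wide median of 1.62. Those at the RFX1 promoter, the start of PODNL1 and DCAF15, and the alternative start and upstream region of RFX2 lay above it, with low ends from 1.63. That of the RFX3 promoter lay below it. The ratio was 2-fold or more at 6 of 9, against 24.1% genome-wide, but this depended on the scale. By the authors' fold over local background it was so at 0 of 9, with a highest ratio of 1.99, against 4.39% genome-wide. The 6 were the promoters of RFX1 and RFX5, the alternative start and the upstream region of RFX2, and the starts of PODNL1 and DCAF15 in the RFX1 flank and of RIC8B in the RFX4 flank. The median log2 ratio was 1.10, against 0.70 over all shared regions. By the authors' fold it was 0.67, against 0.44 over all shared regions. Of the 14 regions shared by dKO and BAF53B, 10 were lower with BAF53B, 6 with an interval below 1, and 79.7% of 11147 regions were lower genome-wide. Their median log2 ratio was −0.37, against −0.36 over all.

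**Figure D4:**
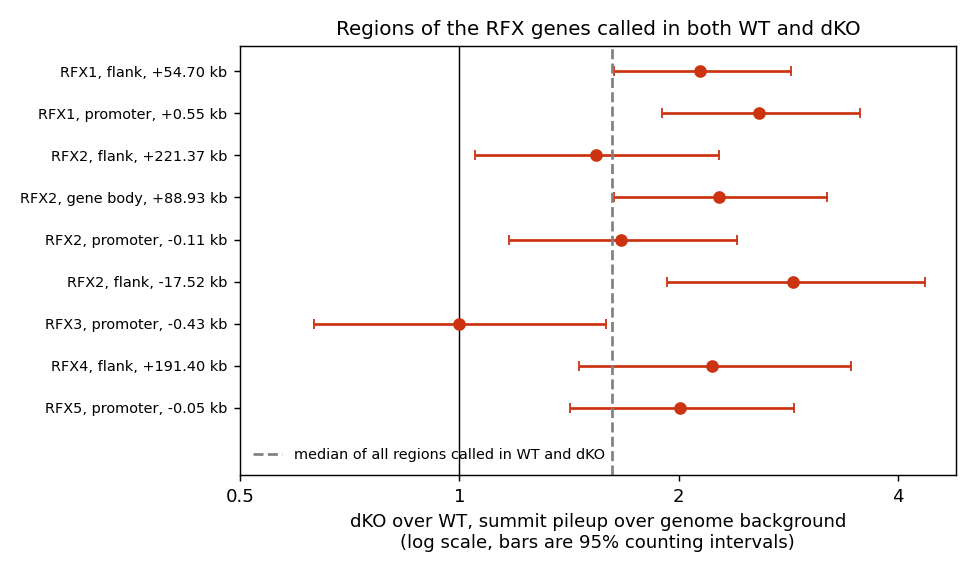
Ratio of dKO over WT in summit pileup over genome background (x axis, log scale) for the 9 regions of the RFX genes called in both lists (y axis, gene, zone and distance from the gene start), with 95% counting intervals as bars; the solid line is a ratio of 1 and the dashed line the median of 1.62 over all shared regions. The RFX3 promoter, whose WT and dKO summits lie at different places, sits at 1.0, and the RFX2 upstream region is farthest to the right at 2.87.

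Motifs were also counted at the RFX genes themselves. The X-box consensus was a core site followed by TGG on either strand. It was found near the summit, within 100 bp, in 149 WT, 304 dKO and 260 BAF53B peaks. These were 1.89%, 1.20% and 1.53% of their lists, so the dKO list held the most such peaks at the lowest share. The consensus was in 0.971% of RefSeq promoters, which at 300 bp are longer than the stretch searched at a summit. It was in 0 of the 37 RFX regions, a number too small to set apart from shares this low. A core site alone, which every match to the consensus includes, lay near the summit in 7 of the 37 regions (18.9%) and in 9.15% of WT, 7.19% of dKO and 8.59% of BAF53B peaks. The full X-box lay near the summit in 3 of the 37 (8.11%), all at RFX2. In the whole lists it lay near 179 WT, 349 dKO and 301 BAF53B summits (2.27%, 1.37% and 1.78%), and in 1.31% of RefSeq promoters. The pattern was chosen after the sequences of these regions had been seen, so the 8.11% is not a measure of enrichment. The core site and the full X-box overlap in the RFX2 upstream region and in the RFX2 intron 1 region listed with BAF53B alone. RefSeq promoters (GRCh38.p14) were matched for 5 of the 7 members. That of RFX1, the first of RFX5 and the first of RFX4 held a core site, and the second of RFX4 the full X-box and the consensus. RFX2 and RFX6 had no entry.

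Partners of the RFX proteins mostly had promoter peaks in all 3 lists. RFXANK and RFXAP, which join RFX5 at MHC class II promoters, had a promoter peak in all 3, with 60, 91 and 66 fragments for RFXANK and 42, 58 and 39 for RFXAP in WT, dKO and BAF53B. ANKRA2, a relative of RFXANK that can bind RFX7, had 74 fragments in dKO and 52 with BAF53B and no WT peak. RFX8, the remaining member of the gene family, had no promoter peak in any list. Together with the NF-Y subunits and CREB1, 6, 7 and 7 of these 8 genes had one. The highest dKO folds were those of ANKRA2 (7.20), NFYC (7.19) and CREB1 (5.85).

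Lists of genes tied to RFX factors, not all of them direct targets, were compared in the same way. Among 32 primary cilium genes, 19, 29 and 27 had a promoter peak in WT, dKO and BAF53B, shares above those of all genes in each list. The highest dKO folds were those of IFT27 (11.1), a part of the intraflagellar transport complex, WDR19 (10.5), another part of it, and TCTN3 (8.30), of the ciliary transition zone. TCTN2, of the same zone, had a peak in WT (30 fragments) and with BAF53B (44) and none in dKO, the 1 gene of all these lists to do so. Of 18 motile cilium genes, 8, 14 and 12 had a promoter peak. Here RSPH1 (9.57), RSPH4A (8.07) and DNAH9 (7.75), parts of the radial spokes and the outer dynein arms, had the highest dKO folds, and RSPH1 had 56, 173 and 108 fragments. Of 9 RFX7 target genes, 5, 9 and 8 had one, and PIK3R3 (7.16), TSPYL2 (6.95) and MXD4 (6.78) led. Of 12 genes of the MHC class II list, most of them targets of RFX5, 0, 1 and 0 had one, the exception being CD74 in dKO.

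Where WT and dKO both marked the promoter, the median log2 ratio of dKO over WT was 0.54 for 6 partners, 0.72 for 18 primary cilium genes, 0.89 for 8 motile cilium genes and 0.92 for 5 RFX7 targets. It was 0.77 over all 5576 such genes, of which 96.3% were higher in dKO, so the lists lay on both sides of the whole. The full X-box lay near a dKO promoter summit at 6 primary cilium genes, IFT57, IFT122, WDR35, TCTN1, TCTN3 and B9D2, at 3 motile cilium genes, DNAH5, CCDC40 and HYDIN, and at 1.73% of the 11301 genes with a dKO promoter peak. The stricter consensus was found at DYNC2LI1 of the primary and at DNAH5, CCDC40 and RSPH4A of the motile cilium genes, and at 1.15% of those genes. These genes were named after their sequences had been searched. None of the partners, MHC class II genes or RFX7 targets held either motif there.

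**Figure D5:**
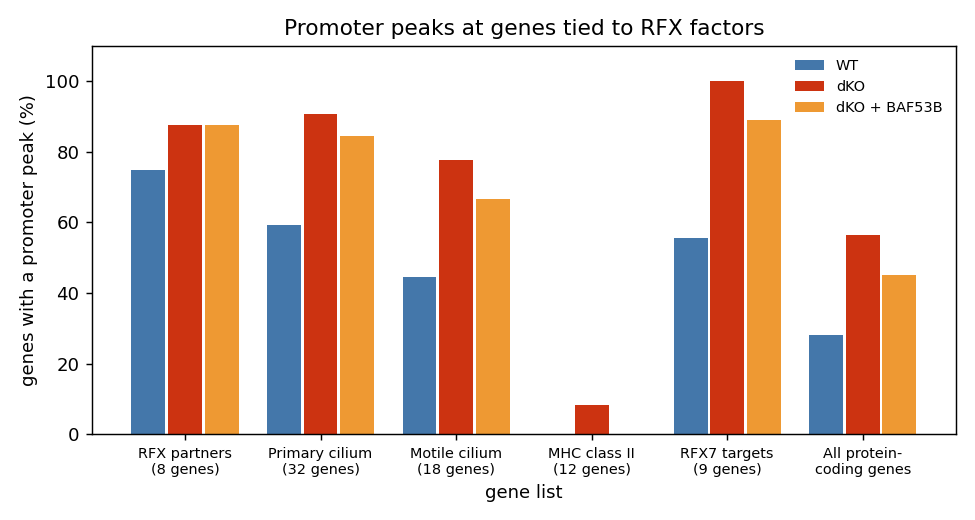
Percent of genes with a promoter peak (y axis) in the WT, dKO and BAF53B lists, for 5 gene lists tied to RFX factors and for all protein-coding genes (x axis, with the number of genes). The bars of the MHC class II genes lie below those of all genes (28.2, 56.4 and 45.0%), with 1 of 12 genes in dKO and 0 in the other lists, and those of the other 4 lists lie above them.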

How the data were processed

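Per the submitters' processing notes and the study's methods, cutadapt 1.13 was used for adapters, Bowtie2 2.2.5 for alignment to hg38, SAMtools 1.3.1 and Picard 1.90 for duplicates, and MACS2 for peaks, the authors pooling both replicates of a group (6 samples, 3 lists). MACS2 options and the Tn5 shift are not given in the sources used here. The deposited fold is the ratio of the summit pileup to the local background, each with a pseudocount of 1. The deposited −log10 p-values and −log10 q-values are Poisson values of the same quantities, and every listed −log10 q was at least 5.

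The whole number of fragments at each summit was solved from the fold and the −log10 p, within 0.001, and was recovered for 100% of peaks and for 100% of 5000 simulated peaks. The simulated peaks were made with the same formulas, so they check only the solving and not the formulas. The lowest background of a list served as its depth. Regions overlapping by at least 1 bp were merged. Ratios of pileups have exact 95% intervals from the Clopper-Pearson method, for counting error only. Genes came from GENCODE version 44, and promoter sequences from RefSeq. Motifs were searched within 100 bp of the summit. The software was Python 3.11.15 with pysam 0.24.0, scipy 1.17.1, pandas 2.3.3, numpy 2.4.6 and matplotlib 3.10.9.

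The members, gene lists and windows were chosen with earlier results of these data known. Besides the members, genes were named by rule: RFX8, the cofactors RFXANK, RFXAP and ANKRA2, the 3 genes of highest dKO promoter fold in each list, genes with a promoter peak in WT and not in dKO, other genes at whose start a region lay, and the 2 genes closest to a member in promoter values. The closest genes of RFX5 are not reported here. Alternatives included a stricter −log10 q (10 or more), lists of equal length, other windows, other overlap rules, other motifs and the authors' fold as scale.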

Additional observations from a re-analysis of the deposited data

How the results depend on the processing

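No paired analysis was possible because the authors' lists merge the replicates, and no single replicate could be left out for that reason. Of 42 alternatives, taken list by list, 29 were classed as the same as the value reported and 13 as moved. The first class is wide. It includes a fall from 9 to 6 peaks in the WT windows and one from 1.10 to 0.67 in the median log2 ratio. At a −log10 q of at least 10, promoter peaks in dKO fell to 3 members, as many as in WT, and peaks in the windows to 10 in dKO and 11 with BAF53B. Lists of equal length gave the same numbers, 3 members, 10 peaks and 11 peaks, against 4 members and 9 peaks in WT, so the order of dKO and WT in promoter peaks turned round and BAF53B equalled WT, at 4 members; fewer dKO peaks enter by construction. With a flank of 10 kb the BAF53B windows held 13 peaks. In place of the consensus, at 0 peaks in each list, the core site was near the summit of 3 WT, 6 dKO and 5 BAF53B peaks, and the full X-box, an alternative chosen after seeing the data, of 2, 2 and 3. The median log2 ratio of dKO over WT stayed above 0 in the 4 alternatives run for it, at 0.67 to 1.10. A pileup below about 25 fragments was not listed, which limits every statement on an absent peak.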
